A study of Mus musculus with 8 samples.

Results

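The genes described here are the cyclins, the cyclin-dependent kinases (CDKs) and the CDK inhibitors of mouse embryonic stem cells (ESCs). They were chosen by symbol alone, as every Ccna, Ccnb, Ccnd, Ccne or Ccnf gene, every Cdk gene with a number and every Cdkn gene with a number and optional letter. Of 38 such symbols in the gene table, 36 had a probe set that names the gene alone, out of 19938 genes measured in this way. They comprise 10 cyclins, 19 CDKs and 7 inhibitors, read by 40 probe sets, since Cdk7, Cdk10, Cdk12 and Cdkn1b have 2 each. Ccnb1 had no probe set named here and Cdkn1a shares its probe set with another gene, so that neither was analysed here.

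Expression was compared between E14 cells, a mouse ESC line grown without feeders in LIF, that stably expressed an shRNA against Kdm2b (shKdm2b, 4 samples at passages 27 to 30) and E14 cells that stably expressed a scrambled shRNA (shScr, 4 samples at passages 28 to 31). Both lines had been made with a lentivirus and selected with puromycin. RNA of each sample was read on its own Affymetrix array of the Mouse Gene type (version 1.0 ST). Each group rests on a single shRNA, and nothing names a line derived anew for any sample, so that p-values measure the spread between samples of those lines. The shRNA sequences, by which the groups differ, are given 5′ to 3′ as in the sample labels.
shKdm2b: cgctgtggaaatatctgtcat
shScr: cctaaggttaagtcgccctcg

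Cyclins are the regulatory subunits that switch on CDKs at set points of the cell cycle. D cyclins activate CDK4 and CDK6 in G1 and so begin the phosphorylation of the retinoblastoma protein, E cyclins activate CDK2 at the entry into S phase, and A and B cyclins activate CDK2 and CDK1 from S phase to mitosis. Inhibitors of the INK4 family (Cdkn2a to Cdkn2d) bind CDK4 and CDK6, whereas those of the CIP/KIP family (Cdkn1a to Cdkn1c) bind cyclin-CDK complexes more broadly. Mouse ESCs have a short G1 phase with high activity of cyclin E and CDK2. KDM2B, which brings a polycomb complex to CpG islands, is known in mouse fibroblasts as a repressor of the locus that holds Cdkn2a and Cdkn2b.

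The knockdown was present in the RNA: Kdm2b signal was 75.9% lower in the shKdm2b arrays (log2 fold change -2.05, standard error (SE) 0.18, adjusted p = 0.000891 from limma) and the groups did not overlap. All 10 ESC markers examined lay above the array median on every array. Their mean log2 signal was 13.29 to 13.33 on the shKdm2b arrays and 13.03 to 13.18 on the shScr arrays, and 1 of them, Fgf4, passed the test (log2 fold change 0.37, adjusted p = 0.0238 from limma). Of the 10, 9 had a positive log2 fold change and 1 a negative one. At an unadjusted p under 0.05 from limma, 7 (70%) were higher and 0 lower, against 16.5% and 13.4% of all genes. All 4 shKdm2b arrays lay above all 4 shScr arrays for 5 (50%), against 11.3% of all genes. The mean of 8 fibroblast markers, 5 of which lay above the array median on every array, was 8.12 to 8.41 on the shKdm2b arrays and 8.04 to 8.47 on the shScr arrays. Thy1 was the 1 of these that passed (0.72, adjusted p = 0.000475 from limma). Means of the 7 primitive endoderm, 6 trophoblast and 6 neural markers lay between 8.64 and 9.09 on the shKdm2b arrays and between 8.68 and 9.37 on the shScr arrays. In that order, 4, 3 and 3 of the markers lay above the array median on every array. The log2 fold change was positive for 5, 3 and 4 of them and negative for 2, 3 and 2. Among these markers Sox7 of the endoderm list rose by 0.40 and Pax6 of the neural list fell by 1.01 (adjusted p = 0.0279 and 0.0212 from limma). Dab2 of the endoderm list was lower by 0.95 on its brighter probe set, without passing (adjusted p = 0.0525 from limma). On shScr replicate 1, Gata3 was 9.94 (other shScr arrays 8.46 to 8.83), Col1a1 10.37 (9.41 to 9.63) and Postn 7.54 (6.12 to 6.55). Col3a1 at 8.77 (8.63 to 8.80) and Elf5 at 7.15 (7.10 to 7.14) did not stand apart there. The same array was the highest of its group for Ccnd2, Cdk6 and Cdkn2b. The part of these marker levels in the results was not tested. In bulk RNA, fewer cells at a given cell cycle stage and less RNA per cell cannot be told apart.

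Most of the cell cycle genes did not pass the test. Of the 36 genes, 4 rose (Cdkn1b, Cdkn2c, Cdkn3 and Cdk16) and 4 fell (Ccnd1, Cdk6, Cdk14 and Cdk2) at an adjusted p under 0.05 in a majority of their probe sets (limma, adjusted over all probe sets of the array). Over all genes, 5.75% were higher, 4.55% lower and 10.3% either by the same criterion, beside 22.2% of the 36 genes. The gene rule of the study's methods further asks for a change of at least 1.5-fold in the most significant probe set. It was met by 2 of the 36 genes, Ccnd1 and Cdk6, both lower, and by none that was higher, against 1.43% of all genes lower, 1.42% higher and 2.85% in either direction. In a fit of the 3 passages that both groups share (28 to 30), with passage as a block, none of the 36 passed, where 0.802% of all genes did. The log2 fold changes in that fit were -0.88 for Cdk6, -0.73 for Ccnd1 and 0.57 for Cdkn3. At an unadjusted p under 0.05 from limma in the full data, 7 genes (19.4%) were higher and 12 (33.3%) lower, against 16.5% and 13.4% of all genes. All 4 shKdm2b arrays lay above all 4 shScr arrays for 5 genes and below them for 7, together 33.3%, against 11.3% of all genes above, 8.72% below and 20.0% either.

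By family, the median log2 fold change was 0.29 over the 7 inhibitors, -0.03 over the 19 CDKs and -0.16 over the 10 cyclins, beside 0.05 over all genes. Among the inhibitors 3 rose and none fell, among the CDKs 1 rose and 3 fell, and among the cyclins none rose and 1 fell. The values of single genes within a family spanned both signs, from -0.24 to 0.64 for inhibitors, from -0.80 to 0.42 for CDKs and from -0.99 to 0.28 for cyclins.

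**Figure D1:**
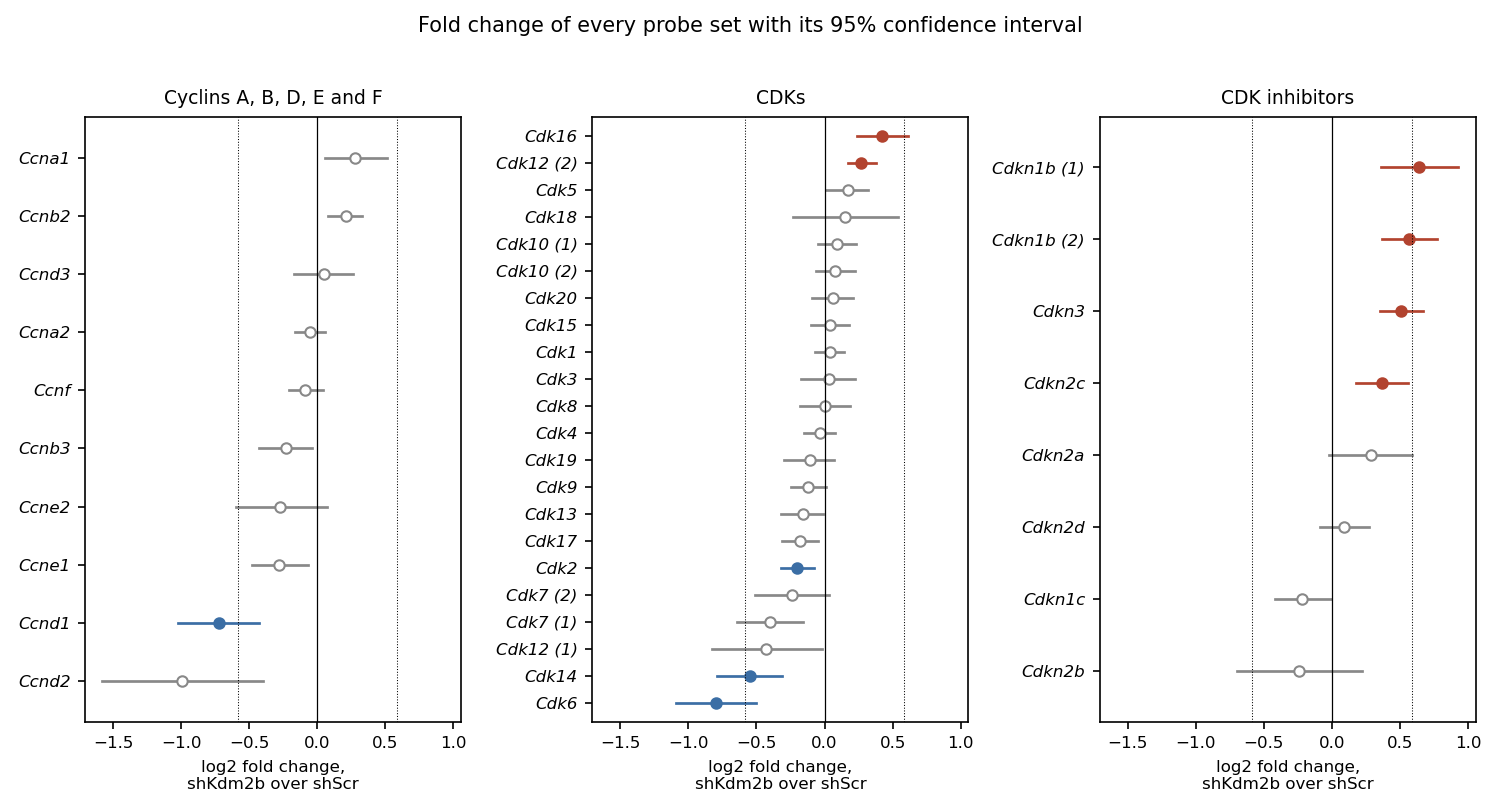
Log2 fold change of shKdm2b over shScr arrays for each of the 40 probe sets, with its 95% confidence interval from limma, by family. Filled points have an adjusted p under 0.05 (red higher, blue lower), open points do not, dotted lines mark 1.5-fold, and a number in brackets ranks the probe sets of a gene by brightness. Ccnd2, Cdk6 and Ccnd1 lie farthest to the left and both Cdkn1b probe sets farthest to the right.

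Cyclin D1 and cyclin D2 were both lower on every shKdm2b array than on any shScr array, whereas cyclin D3 was not. Ccnd1, the D cyclin that responds to growth factor signalling in many cell types, had log2 signals of 11.87, 11.94, 12.33 and 11.88 on shKdm2b arrays 1 to 4, against 12.56, 12.83, 12.96 and 12.57 on shScr arrays 1 to 4. The lowest shScr array thus stood above shKdm2b replicate 3, the highest of its group. Ccnd1 fell by 0.72 on the log2 scale, or 39.5% (SE 0.13, adjusted p = 0.0157 from limma). That call was lost without shKdm2b replicate 2 or 4 or shScr replicate 2, at adjusted p = 0.0509 to 0.0552 from limma. In those 3 fits 3.25% to 4.21% of all genes passed, against 10.3% with all arrays.

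Ccnd2 gave the largest difference of all 36 genes but also the widest spread. Its log2 signal was 9.39, 10.42, 10.51 and 10.04 on shKdm2b arrays 1 to 4, against 11.56, 11.07, 10.91 and 10.78 on shScr arrays 1 to 4. The groups did not overlap, with shKdm2b replicate 1 the lowest of its group by far and shScr replicate 1 the highest of its own. The log2 fold change was -0.99 (SE 0.26, 95% interval -1.58 to -0.40, adjusted p = 0.0522 from limma), just short of the threshold. Over the alternatives its adjusted p ran from 0.0305 to 0.124 from limma. It passed with adjustment over single-gene probe sets (adjusted p = 0.0422 from limma), array weights (0.0305), a trended robust prior (0.0498) and a filter on dim probe sets (0.039). In those fits 12%, 27%, 10.5% and 14.6% of all genes passed. Of the fits that left out 1 array, it passed only in that without shKdm2b replicate 3 (adjusted p = 0.0312). In the fit without that array 17.3% of all genes passed, against 10.3% with all arrays. Ccnd3 differed by 0.05 (interval -0.17 to 0.26, adjusted p = 0.790 from limma) and by -0.02 without shScr replicate 3, and a fall as large as that of Ccnd1 or Ccnd2 lies outside its interval.

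Of the kinase partners of the D cyclins, Cdk6 fell and Cdk4 lay within the spread between replicates. Cdk6 had log2 signals of 10.46, 10.47, 10.74 and 10.30 on shKdm2b arrays 1 to 4, against 11.57, 11.31, 11.25 and 11.02 on shScr arrays 1 to 4. No shKdm2b array reached the lowest shScr array. The log2 fold change was -0.80, a fall of 42.4% (SE 0.13, adjusted p = 0.0105 from limma), and the call held when any 1 array was left out, at adjusted p = 0.00697 to 0.0395 from limma. Cdk4 had 14.00, 14.06, 14.15 and 14.09 on shKdm2b arrays, against 14.09, 14.13, 14.11 and 14.10 on shScr arrays. These arrays overlap, and the log2 fold change was -0.03 (95% confidence interval -0.15 to 0.08, adjusted p = 0.721 from limma).

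Sequence upstream of Cdk6 is shown because Cdk6, alone of the 4 genes that fell, kept its call without any 1 array, and because KDM2B binds DNA at unmethylated CpG. The promoter table of RefSeq (build GRCm38.p6, 250 bases before to 50 after a gene's start) held 31 windows for 27 of the 36 genes. Genes without a match were Ccna2, Ccnd1, Ccnd2, Ccne2, Cdk3, Cdk5, Cdk17, Cdk19 and Cdkn1c. The Cdk6 window, chr5:3343643-3343942 on the plus strand, holds 27 CpG dinucleotides, given in capitals, more than 84.5% of the 32851 windows of this length in the table.
Cdk6: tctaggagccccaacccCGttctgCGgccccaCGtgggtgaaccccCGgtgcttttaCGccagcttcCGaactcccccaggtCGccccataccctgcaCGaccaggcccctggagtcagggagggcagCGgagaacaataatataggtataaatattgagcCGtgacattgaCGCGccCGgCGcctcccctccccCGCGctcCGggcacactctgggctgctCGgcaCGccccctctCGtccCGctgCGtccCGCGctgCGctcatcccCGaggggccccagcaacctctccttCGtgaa

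Downstream of the D cyclins, Cdk2 was slightly lower and the E cyclins did not pass the test. Cdk2, the S phase kinase, had 11.91, 11.91, 11.93 and 11.89 on shKdm2b arrays, against 12.16, 12.18, 12.09 and 12.03 on shScr arrays. The groups did not overlap and the shKdm2b arrays were almost equal. Cdk2 fell by 0.20, or 13.1% (SE 0.05, adjusted p = 0.0488 from limma). Fitted with replicate number as a block, its adjusted p was 0.0622, and without any 1 array but shKdm2b replicate 3 it was 0.0655 to 0.127 from limma.

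Ccne1 had 12.82, 13.05, 13.24 and 12.91 on shKdm2b arrays, against 13.22, 13.32, 13.33 and 13.26 on shScr arrays. Only shKdm2b replicate 3 reached into the range of the shScr arrays, and the log2 fold change was -0.28 (SE 0.09, adjusted p = 0.0958 from limma). Without that array it was -0.35 and passed, at adjusted p = 0.0180 from limma, in the fit where 17.3% of all genes passed. Ccne2 was lower in every same-numbered pair, by 0.15 to 0.39 on the log2 scale, although the groups overlap. Its log2 fold change was -0.27 (SE 0.15, adjusted p = 0.289 from limma), but adjusted p = 0.0439 when replicate number was fitted as a block.

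**Figure D2:**
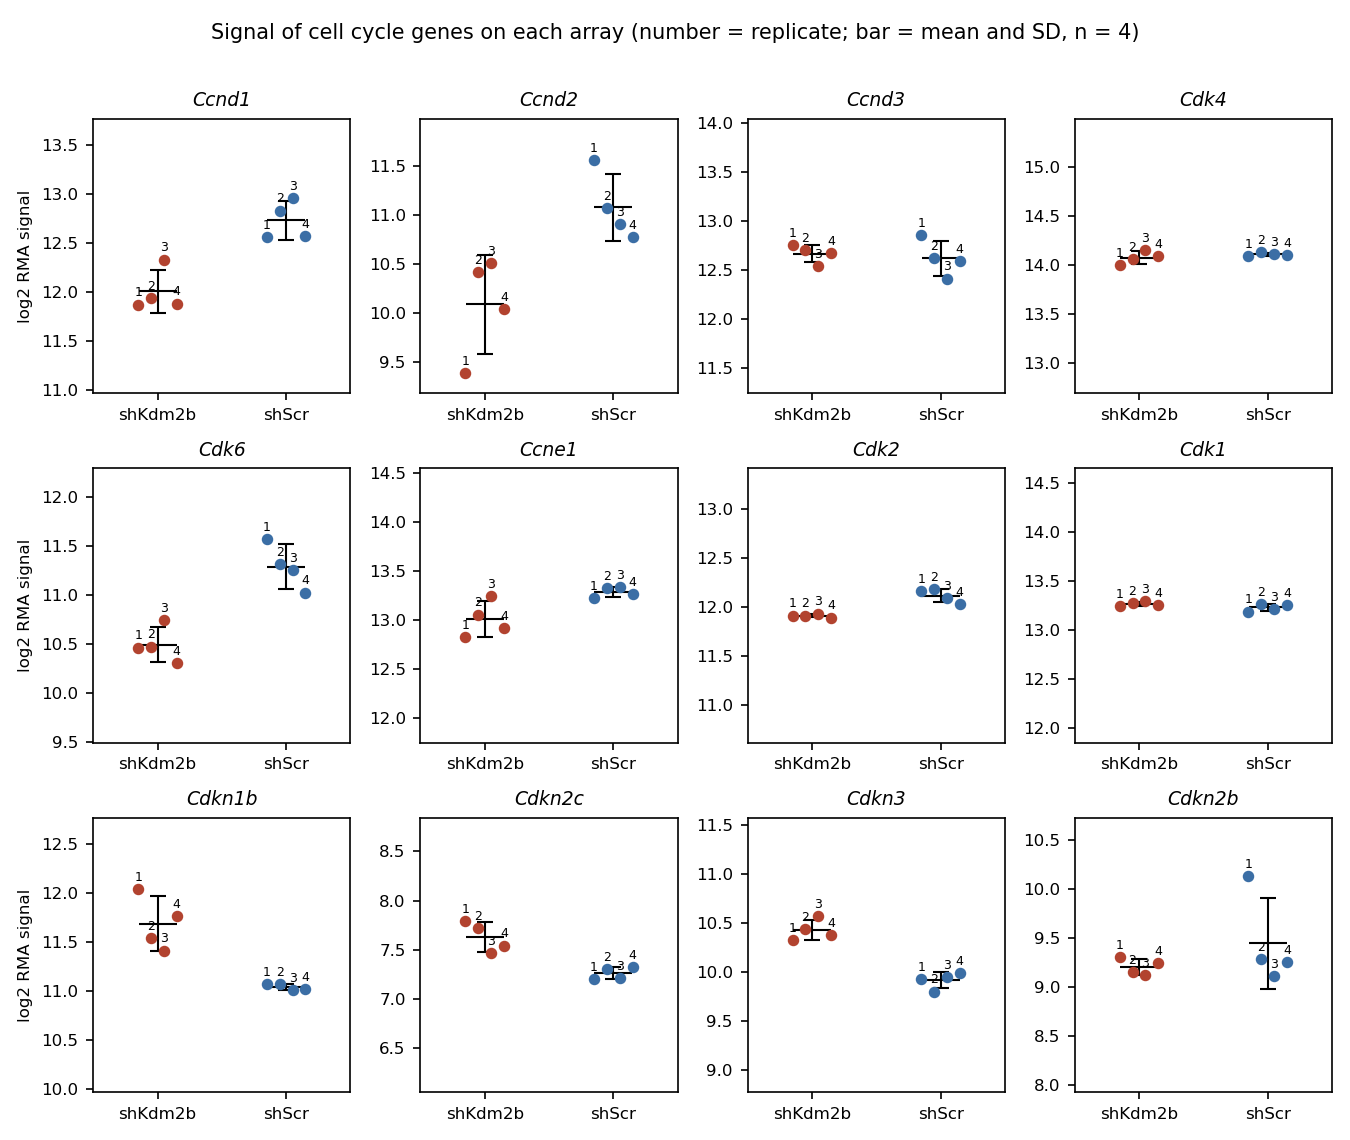
Log2 RMA signal of 12 genes on each array, shKdm2b left and shScr right, with the replicate number above each point and the mean and SD (n = 4) as bars. Every panel spans the same log2 range, and for Cdkn1b the brighter probe set is drawn. Ccnd1, Ccnd2, Cdk6 and Cdk2 are lower, and Cdkn1b, Cdkn2c and Cdkn3 higher, on all shKdm2b arrays than on any shScr array.

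None of the 6 genes of the A, B and F cyclins and Cdk1 passed the test, at a median log2 fold change of -0.01. Cdk1, the kinase of mitotic entry, had 13.25, 13.28, 13.30 and 13.26 on shKdm2b arrays, against 13.19, 13.27, 13.22 and 13.26 on shScr arrays. The groups overlap, with a log2 fold change of 0.04 (95% confidence interval -0.07 to 0.14). Ccna2, the A cyclin of dividing cells, had a log2 fold change of -0.05 (95% confidence interval -0.16 to 0.06), and Ccnf, which encodes an F-box protein that directs ubiquitylation, one of -0.09 (95% confidence interval -0.21 to 0.04).

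Ccnb2, a B cyclin, was higher on every shKdm2b array, at 13.64, 13.61, 13.47 and 13.58, against 13.40, 13.39, 13.35 and 13.34 on shScr arrays. The difference was small and just missed the threshold (log2 fold change 0.21, SE 0.05, adjusted p = 0.0542 from limma), and the adjusted p ran from 0.00627 to 0.359 over the alternatives, with 0.0203 without shKdm2b replicate 3. For Ccna1, an A cyclin of the germ line, the log2 fold change was 0.28 (SE 0.10, adjusted p = 0.116 from limma), and without shKdm2b replicate 3 it was 0.36 (adjusted p = 0.0271). Ccnb3, a B cyclin known for its part in meiosis, had a dim signal of 5.41 to 5.69 on shKdm2b arrays and 5.62 to 5.91 on shScr arrays, with a log2 fold change of -0.23 (SE 0.09, adjusted p = 0.135 from limma).

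Cdkn1b, which encodes the CIP/KIP inhibitor p27, was higher on both of its probe sets. The brighter one gave 12.04, 11.54, 11.41 and 11.76 on shKdm2b arrays, against 11.07, 11.07, 11.01 and 11.02 on shScr arrays. The dimmer one gave 8.33, 8.01, 8.0 and 8.21 on shKdm2b arrays, against 7.65, 7.46, 7.54 and 7.62 on shScr arrays. On each, the lowest shKdm2b array stood above the highest shScr array, and shKdm2b replicates 1 and 4 were the highest.

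Cdkn1b rose by 0.64, or 1.56-fold, on the brighter probe set (SE 0.12, adjusted p = 0.0201 from limma) and by 0.57, or 1.48-fold, on the dimmer one (SE 0.09, adjusted p = 0.00899 from limma). The study's rule reads the fold change of the most significant probe set, here the dimmer, so that Cdkn1b fell just short of it. On every array the signal of the dimmer probe set lay below the array median of 8.47 to 8.53. The brighter probe set alone would meet the rule. Its adjusted p was 0.0543 to 0.0618 without shKdm2b replicate 4 or shScr replicate 2, 3 or 4 (limma), while the dimmer one passed without any 1 array.

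Cdkn3 encodes a phosphatase that removes the activating phosphate from CDKs and is named with the inhibitors. Its log2 signal was 10.33, 10.44, 10.57 and 10.38 on shKdm2b arrays, against 9.93, 9.80, 9.95 and 9.99 on shScr arrays. The groups were apart by more than the range within either, and the rise of 0.51 (1.43-fold, SE 0.07, adjusted p = 0.00557 from limma) held when any 1 array was left out, at adjusted p = 0.00674 to 0.0247 from limma. Cdkn1c, the other measured CIP/KIP gene, had a log2 fold change of -0.22 (SE 0.09, adjusted p = 0.170 from limma), and its groups overlap.

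Windows upstream of Cdkn1b and Cdkn3 are shown because these were the inhibitors with the smallest p. That of Cdkn1b, chr6:134920151-134920450 on the plus strand, holds 30 CpG dinucleotides (capitals), more than 88.3% of all windows. That of Cdkn3, chr14:46760291-46760590 on the plus strand, holds 25, more than 81.6% of all windows.
Cdkn1b: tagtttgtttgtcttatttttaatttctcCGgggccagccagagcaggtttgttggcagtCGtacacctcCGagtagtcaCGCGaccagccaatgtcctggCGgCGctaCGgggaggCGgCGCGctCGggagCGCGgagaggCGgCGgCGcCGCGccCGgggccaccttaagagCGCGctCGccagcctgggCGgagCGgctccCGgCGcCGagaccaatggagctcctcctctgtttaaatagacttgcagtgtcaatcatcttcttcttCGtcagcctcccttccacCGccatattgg
Cdkn3: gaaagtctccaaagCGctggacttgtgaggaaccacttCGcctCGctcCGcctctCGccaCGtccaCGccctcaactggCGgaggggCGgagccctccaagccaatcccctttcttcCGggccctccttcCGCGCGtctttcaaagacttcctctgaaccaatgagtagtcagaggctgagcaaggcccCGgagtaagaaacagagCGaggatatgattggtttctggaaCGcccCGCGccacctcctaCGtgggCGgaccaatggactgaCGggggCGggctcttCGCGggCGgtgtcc

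Over the 31 windows of the cell cycle genes the median number of CpG dinucleotides was 24, against 7 over all windows. The highest counts were 53 for Cdk14, which passed, and 52 for Cdk13, which did not. Of other genes that did not pass, Cdkn2a (45 in 1 of its 2 windows, 12 in the other), Ccne1 (41), Cdk9 (39), Ccna1 (35) and Cdk8 (31) also had more than Cdk6, Cdkn1b and Cdkn3. So did Cdkn2c, which passed, in 1 of its 2 windows (33, with 8 in the other). A link between this number and the change in expression was not tested. The same windows were searched on both strands for 3 motifs of cell cycle promoters, and a base could count for more than 1 motif. TTTGAA, the cell cycle homology region, was found in 6 of 31 windows (19.4%, against 17.9% of all windows), those of Ccnb2, Ccnf, Cdk1, Cdk16, Cdkn2b and Cdkn3. CCAAT was found in 15 (48.4%, against 37.4%), Cdkn1b and Cdkn3 among them. An E2F string, TTTCCCGC or TTTGGCGC, was found in 2 (6.45%, against 1.56%), those of Cdk2 and Cdkn2a. A match describes the letters of a window and says nothing of binding.

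Of the INK4 genes, Cdkn2c alone passed the test. Cdkn2c, which encodes p18, had 7.79, 7.72, 7.46 and 7.54 on shKdm2b arrays, against 7.20, 7.30, 7.21 and 7.32 on shScr arrays. The groups did not overlap, although the signal lies below the array median of 8.47 to 8.53. Cdkn2c rose by 0.37, or 1.29-fold (SE 0.08, adjusted p = 0.0301 from limma), and the call was lost without any 1 array but shKdm2b replicate 3, at adjusted p = 0.0512 to 0.0931 from limma. Cdkn2d, which encodes p19 of the same family, had a log2 fold change of 0.09 (95% confidence interval -0.09 to 0.27).

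Cdkn2a and Cdkn2b, the genes of the locus that KDM2B is known to repress in fibroblasts, gave opposite signs and did not pass. Cdkn2a had 8.85, 8.89, 8.71 and 9.02 on shKdm2b arrays, against 8.98, 8.53, 8.36 and 8.44 on shScr arrays. In 3 of 4 pairs the signal was higher in shKdm2b than in shScr, but shScr replicate 1 stood within the shKdm2b range. The log2 fold change was 0.29 (95% confidence interval -0.02 to 0.59, adjusted p = 0.218 from limma). Without shScr replicate 1 it was 0.42 and passed, at adjusted p = 0.0285 from limma, while leaving out any other array did not bring it past the threshold. The probe set is annotated with transcripts of both products of the gene, the INK4 inhibitor and ARF, and cannot tell them apart.

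Cdkn2b had 9.30, 9.15, 9.12 and 9.24 on shKdm2b arrays, against 10.13, 9.28, 9.11 and 9.25 on shScr arrays. Apart from shScr replicate 1, which was high, all arrays lay within a narrow band. The log2 fold change of -0.24 (95% confidence interval -0.70 to 0.22, adjusted p = 0.490 from limma) was -0.01 without that array. A rise of Cdkn2b above 0.22 on the log2 scale thus lies outside the interval.

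Several CDKs act mainly in transcription rather than in the cell cycle. Of the 6 measured here (Cdk7, Cdk8, Cdk9, Cdk12, Cdk13 and Cdk19), none passed on a majority of its probe sets, at a median log2 fold change of -0.14. Cdk12, a kinase of the RNA polymerase II tail, gave opposite results on its 2 probe sets. The brighter one had 11.07, 11.58, 11.93 and 11.57 on shKdm2b arrays, against 11.67, 12.00, 12.17 and 12.02 on shScr arrays, and was lower in every same-numbered pair (log2 fold change -0.43, SE 0.18, adjusted p = 0.172 from limma). The dimmer one had 9.04, 8.98, 9.01 and 8.98 on shKdm2b arrays, against 8.73, 8.75, 8.70 and 8.75 on shScr arrays, with no overlap and a log2 fold change of 0.27 (SE 0.05, adjusted p = 0.0126 from limma). When replicate number was fitted as a block both passed, at adjusted p = 0.0220 and 0.0286 from limma, still with opposite signs. The annotation pairs the dimmer one with a single cDNA.

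Cdk7, the kinase that activates other CDKs and also acts in transcription, was lower on both probe sets. On the brighter one the signal was 10.42, 10.62, 10.78 and 10.37 on shKdm2b arrays, against 10.85, 11.09, 11.05 and 10.82 on shScr arrays. The groups did not overlap there, with a log2 fold change of -0.40 (SE 0.11, adjusted p = 0.0539 from limma, and 0.0162 in the fit blocked by replicate). Without shKdm2b replicate 3 it was -0.48 (adjusted p = 0.0189 from limma). On the dimmer one the groups overlap, with a log2 fold change of -0.24 (SE 0.12, adjusted p = 0.248 from limma), so that the gene did not pass with or without the block.

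Kinases of another branch of the family passed in opposite directions. Cdk14, which pairs with a membrane-bound cyclin and acts in Wnt signalling, had 7.95, 7.73, 7.59 and 7.68 on shKdm2b arrays, against 8.50, 8.13, 8.17 and 8.35 on shScr arrays. It fell by 0.55, or 31.8%, short of 1.5-fold (SE 0.10, adjusted p = 0.0187 from limma), and without shKdm2b replicate 2 or 4 or shScr replicate 4 its adjusted p was 0.0547 to 0.0605. The Cdk14 signal lay below the array median (8.47 to 8.53) on every array but shScr replicate 1. Cdk16, an X-linked kinase known for its part in spermatogenesis, had 12.52, 12.41, 12.35 and 12.64 on shKdm2b arrays, against 12.15, 11.95, 11.98 and 12.15 on shScr arrays. It rose by 0.42, or 1.34-fold (SE 0.08, adjusted p = 0.0194 from limma), and without shKdm2b replicate 2 or shScr replicate 2 or 3 its adjusted p was 0.0515 to 0.0639. For both genes the groups did not overlap.

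The remaining CDKs lay between -0.18 and 0.17 on the log2 scale and none passed. Cdk5, best known as a kinase of neurons, was the highest of them, with a log2 fold change of 0.17 (SE 0.07, adjusted p = 0.164 from limma) and a higher signal on replicate 1 than on the other replicates in both groups. Cdk17 and Cdk9 were lower on every shKdm2b array than on any shScr array, with log2 fold changes of -0.18 and -0.12, without passing (adjusted p = 0.0920 and 0.215 from limma). Cdk3, which the gene table lists as a transcribed pseudogene, had a log2 fold change of 0.03, and those of Cdk8, Cdk10, Cdk13, Cdk15, Cdk18, Cdk19 and Cdk20 ran from -0.16 to 0.15.

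The shKdm2b arrays did not differ from the controls by equal amounts. Of the 9 probe sets of the 8 genes that passed, shKdm2b replicate 3 was the one nearest to the shScr mean on 7, and replicate 1 was farthest on 4. Replicate 3 also had the highest Kdm2b signal of its group, 9.45, against 8.68, 9.12 and 8.91 on shKdm2b replicates 1, 2 and 4. Among the shScr arrays replicate 3 was the highest too, at 11.34, and within same-numbered pairs Kdm2b was lower by 1.89 (replicate 3) to 2.29 (replicate 4) on the log2 scale. The part of the remaining Kdm2b in these differences was not tested.

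Other cell cycle genes, from lists chosen with results of these data known, mostly did not pass, and none of them met the 1.5-fold rule. Of all genes 10.3% passed, against 21.4% of the other cyclins and 5.26% to 10.0% of each of the other 6 lists. At an unadjusted p under 0.05 from limma on the brightest probe set, 16.7% to 42.9% of each list were lower and 0% to 25% higher. The shares of all genes were 13.4% and 16.5%. Of 14 other cyclins 1 rose and 2 fell (median log2 fold change -0.11). Ccni rose on both probe sets, by 0.37 and 0.42 (SE 0.07 and 0.06, adjusted p = 0.0180 and 0.00818 from limma), whereas Ccnt1, the partner of CDK9 in transcription elongation, and Ccnl2 fell by 0.32 and 0.23 (SE 0.06 and 0.05, adjusted p = 0.0157 and 0.0371 from limma). Of 12 activators and modifying enzymes of CDKs, 1 fell and none rose (median 0.02). This was Cdc25a, the phosphatase that activates CDK2, which fell by 0.34 (SE 0.06, adjusted p = 0.0189 from limma).

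Of 19 pocket proteins, E2F factors and partners, 1 rose and none fell on a majority of its probe sets (median 0.01). E2f3 was lower on both of its probe sets, by 0.51 and 0.43 (SE 0.13 and 0.16, adjusted p = 0.0429 and 0.138 from limma). Only the brighter of these passed, which is not a majority. Rbl1, which encodes the pocket protein p107, had 10.59, 10.67, 10.68 and 10.66 on shKdm2b arrays, against 10.21, 10.07, 10.15 and 9.98 on shScr arrays, and rose by 0.55, or 1.47-fold (SE 0.06, adjusted p = 0.00309 from limma). Of 16 genes of replication licensing and S phase, 1 fell and none rose (median -0.10). At an unadjusted p under 0.05 from limma 6 of them (37.5%) were lower and none higher. All 4 shKdm2b arrays lay below all 4 shScr arrays for 5 of them (31.2%, against 8.72% of all genes) and above them for none (11.3% of all genes). Counts below and above were 4 and 2 of 14 other cyclins, 6 and 1 of 22 ubiquitin ligase genes, and 3 and 3 of 19 pocket proteins and partners. They were 2 and 0 of 12 activators and modifying enzymes, 3 and 0 of 16 mitotic genes, and 0 and 1 of 10 genes of the p53 list. Cdc6, which loads the replicative helicase, had 10.35, 10.50, 10.55 and 10.25 on shKdm2b arrays, against 10.89, 10.92, 10.95 and 10.91 on shScr arrays, and fell by 0.51 (SE 0.07, adjusted p = 0.00648 from limma). For Rbl1 and Cdc6 the groups did not overlap.

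Of 16 mitotic genes 1 fell and none rose (median -0.04). Top2a, the topoisomerase of dividing cells, fell on both probe sets, by 0.32 and 0.76 (SE 0.06 and 0.19, adjusted p = 0.0135 and 0.0466 from limma), the brighter of which lost its call without shKdm2b replicate 2 and the dimmer of which had adjusted p = 0.0645 in the fit blocked by replicate and 0.0818 to 0.111 without any 1 array but shKdm2b replicate 1 or 3. Of 22 genes of the SCF and APC/C ubiquitin ligases, which degrade cyclins and inhibitors, 1 rose and 1 fell (median -0.06): Btrc rose by 0.25 and Cdc20, the activator of the APC/C, fell by 0.26 (SE 0.06 and 0.06, adjusted p = 0.0402 and 0.0393 from limma). Of 10 measured genes of the p53 list, 1 rose and none fell (median -0.11). Pmaip1, which encodes the apoptosis factor NOXA, rose by 0.51 (SE 0.10, adjusted p = 0.0197 from limma). Cdc25a, Cdc20, Pmaip1 and the brighter Ccni probe set also lost their calls without certain single arrays, at adjusted p = 0.0531 to 0.116 from limma, whereas Rbl1 and Cdc6 passed without any 1 array. In the fit of passages 28 to 30, Rbl1 and Cdc6 did not pass (adjusted p = 0.0678 and 0.108 from limma). Ccnt1, Ccnl2, Btrc, E2f3 and the cell type markers were not examined under the alternatives.

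**Figure D3:**
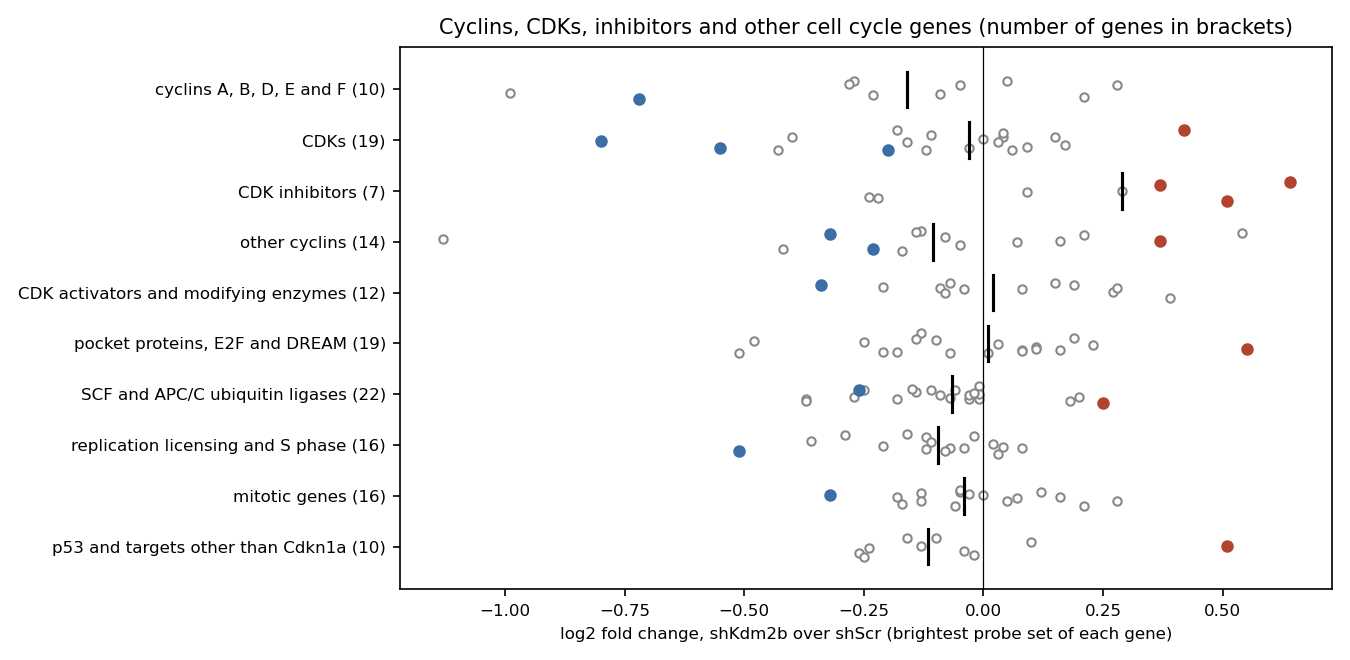
Log2 fold change of shKdm2b over shScr arrays for each gene (brightest probe set) of the 3 families and of 7 lists of other cell cycle genes. Filled points are genes with an adjusted p under 0.05 in a majority of their probe sets (red higher, blue lower), and black bars are medians. The inhibitors have the highest median, at 0.29, and the medians of the other rows lie between -0.16 and 0.02.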

How the data were processed

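The authors deposited log2 values, made from the probe intensities of 8 arrays with RMA in oligo 1.18.1 (background correction, quantile normalisation, then a summary for each probe set). Array medians ran from 8.47 to 8.53, so that a shift of most transcripts would not be visible, and the number of arrays limits the precision. Their genome build and annotation: not given in the sources used here. Levels of different probe sets are not comparable.

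Probe sets were named through GEO's platform annotation, with symbols updated through gene identifiers of RefSeq (GRCm38.p6), also the source of the promoters. All 35556 probe sets were tested with limma 3.58.1 in R 4.3.3 (lmFit and eBayes, Benjamini-Hochberg over all), shKdm2b against shScr, and the methods' gene rule was applied. With several probe sets, medians use the brightest. The pipeline was tested on simulated data. Figures were drawn with matplotlib 3.10.9.

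Genes and lists were chosen with earlier results of these data known. Named are all genes of the rule that passed, all its cyclins and inhibitors, Cdk1, Cdk2, Cdk4, Cdk6 and Cdk7, the highest and lowest other CDKs, and in each list the gene with the smallest p. Thy1, Pax6, Sox7, Dab2, Fgf4, E2f3, Ccnt1, Ccnl2, Btrc, Cdk3, Cdk9 and Cdk17 were named after their values were seen.

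Deviations from group means of same-numbered arrays correlated at 0.118 to 0.355, and those of different numbers at -0.231 to 0.075, and on this basis same-numbered arrays were treated as pairs. The blocked value is given where it changes a call. Alternatives were leaving out each array, the block, passages 28 to 30 alone, a filter on dim probe sets, median centring, a second quantile normalisation, a trended robust prior, array weights, adjustment over single-gene probe sets, the brightest probe set per gene and other fold thresholds.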

Additional observations from a re-analysis of the deposited data

Results flagged for a closer look

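In 4 groups of 4 arrays, out of 60 groups examined, 1 array stood apart from the other 3 by Dixon's test, which flags about 1 group in 20 by chance. For Ccnd1, shKdm2b replicate 3 was high at 12.33, against 11.87 to 11.94 on the other shKdm2b arrays. For Cdk5, shKdm2b replicate 1 was high at 11.30 (others 11.16 to 11.17), as was shScr replicate 1 at 11.18 (others 10.97 to 10.99). For Cdkn2b, shScr replicate 1 was high at 10.13, against 9.11 to 9.28 on the other shScr arrays.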

How the results depend on the processing

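Of 447 values of the named cyclins (Ccnf not counted), CDKs and inhibitors under the alternatives, 381 kept their direction and their side of the threshold, 39 no longer passed, 26 newly passed and 1 changed sign (Ccnd3, 0.05 with all arrays and -0.02 to 0.12 when 1 array was left out). Ccnf kept its sign and did not pass under any of them. The 4 genes higher at an adjusted p under 0.05 became 8 with array weights, and the 4 lower became 7, while all genes passing came to 27%, against 10.3%. The 8 include Cdk12, whose probe sets passed in opposite directions there (0.25 and -0.42) and which counts by its more significant one. With passages 28 to 30 alone (3 arrays a group) and passage as a block the counts were 0 higher, 0 lower and 0 lower by the 1.5-fold rule, where 0.802% of all genes passed and Cdk6 had a log2 fold change of -0.88 (adjusted p = 0.0631 from limma). The cause of these losses was not tested. By the rule, 1 gene was higher with the brightest probe set per gene (Cdkn1b), 4 higher and 4 lower without a fold threshold, and 0 lower at 2-fold. When 1 array was left out, 0 to 1 genes were higher and 1 to 3 lower by the rule, and 1 to 6 higher and 1 to 6 lower at an adjusted p under 0.05 (3.25% to 17.3% of all genes). The 17.3% is the share without shKdm2b replicate 3. Without shKdm2b replicate 2 or 4 or shScr replicate 2, 3 or 4 it was 3.25% to 4.43%. Calls that single genes gained or lost in those fits are to be read beside these shares. Kdm2b stayed between -2.19 and -1.94 when 1 array was left out, and was -1.90 with passages 28 to 30 alone. In the fit with a replicate block, 4 genes were higher and 5 lower at an adjusted p under 0.05 (14.2% of all genes), Cdk12 again counting once although its probe sets opposed each other, and Cdk2, Ccne2, Cdk7 (brighter probe set) and Cdk12 (brighter probe set) alone of the named cyclins, CDKs and inhibitors changed side. Rescaling moved the median of all probe sets from 0.0255 to 0.0067 (median centring) or 0.0380 (second quantile normalisation), and under that second normalisation Cdk2 no longer passed and Ccnb2 did.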
